A study of Mus musculus with 15 samples.

Results

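OT-I CD8 T cells grown for 14 days in a memory-inducing cocktail and sorted as CD44+CD62L- were compared with uncultured naive OT-I CD8 T cells. The comparison was chosen by the sample labels alone and rests on 6 of the 15 RNA-seq libraries of the series, 3 of each population. T cells of OT-I mice share a transgenic receptor for SIINFEKL, an ovalbumin peptide, on H-2Kb, so both populations share a single antigen specificity. The CD44+CD62L- population, called cocktail cells here, came from negatively selected CD8 T cells that were mixed with bone marrow-derived dendritic cells carrying that peptide. They were then kept in medium with TWS119, 2-deoxyglucose and the cytokines IL-21 and IL-7, with a single passage. The naive population had spent 0 days in vitro. The design text gives its gate as CD44-CD62L+, whereas the labels of the samples say CD44loCD62L+. The other 9 libraries of the series are 3 each of CD44+CD62L+ and CD44loCD62L+ cells from the same cocktail and of CD44+CD62L- cells grown in IL-2. The libraries of a population are described as technical replicates of its RNA, so every p-value here measures the spread between libraries and not between mice or cultures. Stimulation, time in culture, the 4 cocktail components and the surface gate all separate the populations at once, and their shares of a difference cannot be told apart.

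Naive CD8 T cells are small resting cells that circulate through lymph nodes, which they enter with the chemokine receptor CCR7 and leave with the sphingosine phosphate receptor S1PR1. The transcription factors TCF-1, LEF1, FOXO1 and KLF2 hold this state. After antigen encounter the cells divide, take up more glucose and amino acids, load granules with granzymes and perforin, and exchange lymph node homing receptors for receptors of inflamed tissue. CD44 and CD62L are the surface markers by which naive, effector memory and central memory cells are sorted. IL-7 is a survival factor of resting T cells, IL-21 a cytokine of helper T cells, 2-deoxyglucose a sugar that blocks glycolysis, and TWS119 an inhibitor of glycogen synthase kinase 3, the kinase that marks beta-catenin for destruction.

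Expression was given as normalized FPKM, fragment counts scaled to transcript length and library size. How that size was set is not stated, so the median over all genes may follow from the scaling and is no result. Fold changes are cocktail over naive after log2(FPKM + 1), a scale on which changes of low genes come out too small. Genes count as changed when limma's adjusted p (Benjamini-Hochberg) was under 0.05 and the fold change was 2-fold or more, that is 1 log2 unit. Of 11242 genes tested, 2530 changed (22.5%), of which 1564 were higher (13.9%) and 966 lower (8.59%) in cocktail cells. The adjusted p alone was passed by 10192 genes, and the 3 cocktail libraries did not overlap the 3 naive libraries in 10181 genes (90.6%), so neither sets a gene apart. Between technical replicates the median coefficient of variation was 4.42% in cocktail and 4.69% in naive libraries for genes of 1 to 10 FPKM, and 0.900% and 0.935% above 100 FPKM. No read total was given, so sequencing depth is not known. From the steps between low values, 1 read was worth 1.05 to 1.07 times as many FPKM in naive libraries as in the first cocktail library. FPKM sums ran from 685998 to 692171 in cocktail and from 733024 to 781949 in naive libraries, and small RNA genes held 6.63% to 7.50% and 11.6% to 17.2% of them. The table lists 6039 entries at 0 in all 15 libraries, among them the translation factor gene Eef1a1, so a 0 can be a failed estimate. Of the genes named by rule, 233 changed; in all 233 the libraries of the populations did not overlap, and the largest adjusted p was 8.02e-06. In bulk RNA, fewer cells of a type and less RNA per cell cannot be told apart. Values with ± are mean and SD of 3 libraries in FPKM, or a log2 fold change and its SE.

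**Figure D1:**
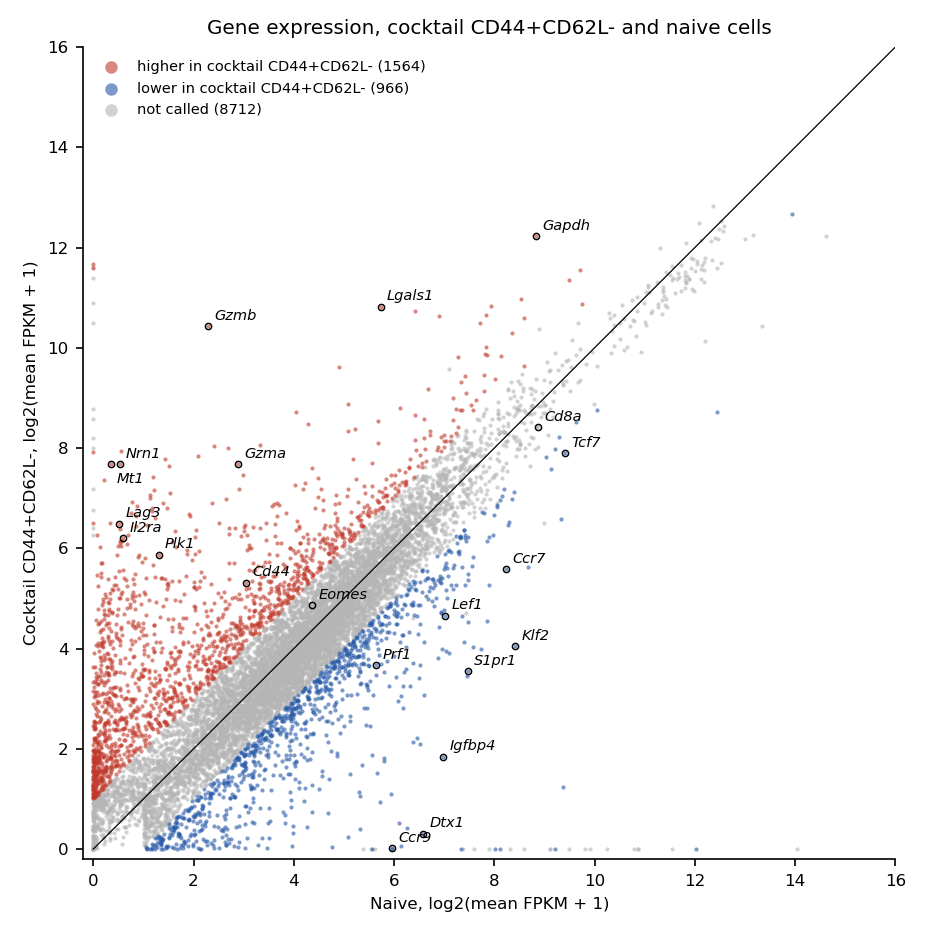
Mean expression in cocktail CD44+CD62L- cells (vertical axis) against naive cells (horizontal axis), both as log2(mean FPKM + 1) of 3 libraries, 1 point per gene tested. Points above the diagonal line are higher in cocktail cells: 1564 higher genes are red, 966 lower ones blue and genes not called grey. Gzmb, Mt1 and Nrn1 lie far above the line and Dtx1 and Ccr9 far below it.

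Cd44, a gene of the gate, followed the sort, which makes it a check and not a finding. It had 38.5, 38.7 and 39.2 FPKM in the cocktail libraries, against 7.25, 7.47 and 7.01 in the naive libraries, on the labelled side in all 6 libraries. The CD8 T cell label was checked with 12 identity genes, all of which passed the filter. The T cell receptor subunit gene Cd3e had 261 ± 2.61 FPKM in cocktail cells, against 301 ± 3.29 in naive cells. The coreceptor gene Cd8a had 342 ± 3.52 FPKM in cocktail cells, against 465 ± 3.39 in naive cells. The pan-leukocyte phosphatase gene Ptprc had 436 ± 2.23 FPKM in cocktail cells, against 553 ± 1.62 in naive cells. Cd3e, Cd8a and Ptprc did not reach the minimum fold. The other coreceptor chain gene, Cd8b1 (chromosome 6, 71322788 to 71337494), was lower, with 436, 433 and 434 FPKM in the cocktail libraries, against 1064, 1048 and 1065 in the naive libraries (log2 fold change -1.28 ± 0.00778). Of the 12 identity genes 0 rose and 3 fell (25%, against 8.59% of all genes), the other 2 being the adhesion receptor gene Cd2 and Cd5, a negative regulator of receptor signalling. Summed over the 12, the level was 4256 to 4277 FPKM in cocktail and 5476 to 5480 in naive libraries.

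Naive and central memory genes formed the list with the lowest median. Of 35 members 34 were tested, and 28 fell and 1 rose, against 8.59% and 13.9% of all genes; the median log2 fold change was -2.51, against -0.0007 over all genes. Counts over lists here and below describe the members that passed the filter, and a member that passed only through the population where it is high had to differ. Every list count is to be read beside the shares of all genes, 13.9% higher and 8.59% lower. Klf2 (chromosome 8, 72319033 to 72321656), a transcription factor of quiescence and lymph node recirculation, had 15.5, 15.3 and 15.6 FPKM in the cocktail libraries, against 335, 344 and 341 in the naive libraries. S1pr1 (chromosome 3, 115710433 to 115715072), whose product guides exit from lymph nodes, had 10.9, 10.5 and 10.7 FPKM in the cocktail libraries, against 175, 176 and 177 in the naive libraries. The fold changes were -4.37 ± 0.0182 for Klf2 and -3.92 ± 0.0168 for S1pr1 (limma adjusted p = 9.15e-22 and 1.20e-21). Ccr7 had 46.5, 47.9 and 46.4 FPKM in the cocktail libraries, against 300.4, 301 and 301 in the naive libraries, lower but still measured in every cocktail library. The same held for Tcf7 (chromosome 11, 52252371 to 52283014), encoding TCF-1, with 236, 237 and 240.0 FPKM in the cocktail libraries, against 682, 681 and 677 in the naive libraries, and for Lef1 (chromosome 3, 131110471 to 131224356), encoding its relative LEF1, with 23.8, 24.4 and 24.4 FPKM in the cocktail libraries, against 128, 129.9 and 129 in the naive libraries. These fell by a log2 fold change of -2.65 ± 0.0351 for Ccr7, -1.51 ± 0.0394 for Tcf7 and -2.37 ± 0.0226 for Lef1; transcripts of all 3 stayed above 20 FPKM in every cocktail library. Other members were close to 0 in cocktail cells. Il6ra (chromosome 3, 89864059 to 89913196), the receptor chain that binds IL-6, had 0.0207, 0.0307 and 0.072 FPKM in the cocktail libraries, against 70.5, 68.5 and 69.5 in the naive libraries. Atp1b1, a subunit of the sodium pump, had 0.437 ± 0.0274 FPKM in cocktail cells, against 67.4 ± 0.848 in naive cells. Igfbp4, a binding protein of insulin-like growth factors, had 2.59 ± 0.0928 FPKM in cocktail cells, against 125 ± 1.98 in naive cells. The forkhead factor gene Foxp1, which enforces quiescence in T cells, had 11.7 ± 0.219 FPKM in cocktail cells, against 43.4 ± 0.744 in naive cells. The inhibitor of DNA binding gene Id3 had 8.07 ± 0.265 FPKM in cocktail cells, against 43.8 ± 0.421 in naive cells. Cd27, a costimulatory receptor of naive and memory cells, had 97.5 ± 1.06 FPKM in cocktail cells, against 194 ± 0.913 in naive cells and missed the minimum fold at -0.98 ± 0.0106. The costimulator Cd28, at 47 ± 0.569 FPKM in cocktail cells, against 31.2 ± 0.509 in naive cells, was not called either. The member that rose was Aqp9, a glycerol channel gene, at 14.4 ± 0.584 FPKM in cocktail cells, against 1.54 ± 0.108 in naive cells. Outside the naming rule and chosen after their values were seen, Il7r, the IL-7 receptor alpha chain, had 117, 116 and 115 FPKM in the cocktail libraries, against 263, 270.1 and 264 in the naive libraries. Foxo1, the upstream regulator of Klf2, had 21.6 ± 0.281 FPKM in cocktail cells, against 58.7 ± 0.808 in naive cells. Bach2, a repressor that restrains effector genes, had 5.79 ± 0.141 FPKM in cocktail cells, against 17 ± 0.112 in naive cells. Il7r, Foxo1 and Bach2 fell.

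**Figure D2:**
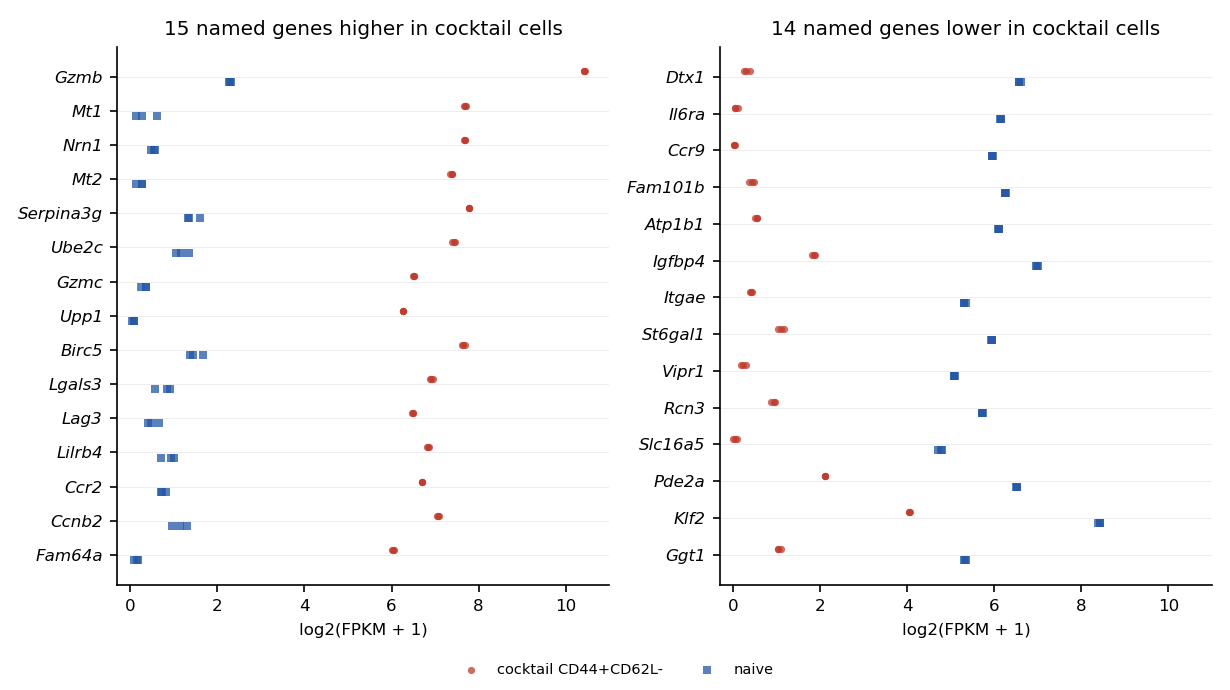
Levels of 15 changed genes at the upper end (left) and 14 at the lower end (right) of the fold changes among genes averaging 10 FPKM or more where higher, as log2(FPKM + 1); circles are the 3 cocktail CD44+CD62L- libraries and squares the 3 naive libraries. Only genes without overlap and with the largest fold changes were chosen, so the 3 circles and 3 squares stand apart in each by selection.

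Homing receptors were exchanged in both directions. Of 26 members 20 were tested, and 7 rose (35%, against 13.9% of all genes) and 6 fell (30%, against 8.59%), the gate gene Cd44 included. Ccr2 (chromosome 9, 124101950 to 124113557), a receptor of inflammatory chemokines, had 102, 102 and 103 FPKM in the cocktail libraries, against 0.625, 0.666 and 0.763 in the naive libraries. Cxcr3, which guides cells to interferon-induced chemokines, had 115 ± 2.06 FPKM in cocktail cells, against 12 ± 0.186 in naive cells. Cxcr6, a receptor of tissue-resident cells, had 151 ± 0.709 FPKM in cocktail cells, against 45.9 ± 0.619 in naive cells. All 3 rose, by log2 fold changes of 5.94 ± 0.0228, 3.16 ± 0.0146 and 1.70 ± 0.0182 in this order. In the other direction, Ccr9 (chromosome 9, 123678439 to 123784330), the gut homing receptor, had 0.0157, 0.00778 and 0.0235 FPKM in the cocktail libraries, against 61.1, 60.8 and 61.2 in the naive libraries, near 0 in every cocktail library. Cxcr4, the receptor of the bone marrow chemokine CXCL12, had 13 ± 0.106 FPKM in cocktail cells, against 117 ± 0.652 in naive cells (log2 fold change -3.07 ± 0.0333).

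Integrins and their ligands moved less. Of 20 members 18 were tested, and 3 rose (16.7%, against 13.9% of all genes) and 5 fell (27.8%, against 8.59%); the median of 0.20 turned to -0.06 with a filter of 5 FPKM and to -0.24 after quantile normalization. The largest change was in Itgae (chromosome 11, 73090583 to 73147446), encoding CD103, the partner of beta 7 in binding epithelium, with 0.322, 0.345 and 0.303 FPKM in the cocktail libraries, against 38.6, 39.7 and 38.7 in the naive libraries. Itgb1, the chain shared by the VLA integrins, had 77 ± 0.201 FPKM in cocktail cells, against 21.5 ± 0.447 in naive cells and rose by 1.79 ± 0.0169. Itgb3 rose too, with 39.3 ± 0.509 FPKM in cocktail cells, against 13 ± 0.244 in naive cells. The LFA-1 chain gene Itgal, at 257 ± 0.89 FPKM in cocktail cells, against 153 ± 1.34 in naive cells, and the VLA-4 chain gene Itga4, at 33.1 ± 0.722 FPKM in cocktail cells, against 49.5 ± 0.845 in naive cells, did not reach the minimum fold. Icam1 and Icam2, adhesion ligands of LFA-1, fell, with 26.7 ± 0.542 FPKM in cocktail cells, against 69.96 ± 0.732 in naive cells for Icam1 and 38 ± 0.996 FPKM in cocktail cells, against 82.8 ± 0.722 in naive cells for Icam2.

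Genes of mitosis gave the highest median of all lists. All 40 members were tested, and 39 rose (97.5%, against 13.9% of all genes) and 0 fell, with a median log2 fold change of 4.53. Ube2c (chromosome 2, 164769898 to 164778822), a ubiquitin-conjugating enzyme of the anaphase-promoting complex, had 166, 173 and 174 FPKM in the cocktail libraries, against 1.05, 1.55 and 1.23 in the naive libraries. Birc5 (chromosome 11, 117849251 to 117855743), encoding survivin of the chromosomal passenger complex, had 199, 204 and 197 FPKM in the cocktail libraries, against 1.73, 1.6 and 2.2 in the naive libraries. The proliferation marker gene Mki67 had 110.1, 113 and 110.2 FPKM in the cocktail libraries, against 1.27, 1.26 and 1.2 in the naive libraries. Each was at a few FPKM or less in naive cells and above 100 in every cocktail library. Cyclin B2 (Ccnb2) had 133 ± 1.94 FPKM in cocktail cells, against 1.2 ± 0.252 in naive cells. The chromosome-untangling enzyme gene Top2a had 229 ± 0.916 FPKM in cocktail cells, against 3.24 ± 0.274 in naive cells. The kinases that drive mitotic entry were Cdk1 (chromosome 10, 69335146 to 69352938), with 45.8, 45.7 and 46.3 FPKM in the cocktail libraries, against 0.392, 0.54 and 0.363 in the naive libraries, and Plk1 (chromosome 7, 122159439 to 122169873), with 58.6, 56.5 and 57.7 FPKM in the cocktail libraries, against 1.37, 1.54 and 1.5 in the naive libraries (log2 fold change 5.04 ± 0.0345 for Cdk1 and 4.57 ± 0.0251 for Plk1). Pttg1, encoding securin, was the member that was not called, with 44.2 ± 0.901 FPKM in cocktail cells, against 39 ± 2.12 in naive cells.

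The promoters of these 2 kinases are shown because many mitotic genes carry the cell cycle homology region TTTGAA next to CCAAT boxes. The sequences are from RefSeq on GRCm38.p6, 250 bases before to 50 after the start, given 5′ to 3′ in the direction of the gene, with matches to TTTGAA or CCAAT on either strand in capitals.
Plk1, chr7:122159185-122159484, plus strand: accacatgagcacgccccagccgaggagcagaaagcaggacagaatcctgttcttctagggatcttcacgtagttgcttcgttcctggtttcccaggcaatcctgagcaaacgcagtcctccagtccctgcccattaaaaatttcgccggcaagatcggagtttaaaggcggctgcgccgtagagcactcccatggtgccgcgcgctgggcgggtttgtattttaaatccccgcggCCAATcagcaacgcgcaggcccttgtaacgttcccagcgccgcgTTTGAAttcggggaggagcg
Cdk1, chr10:69352863-69353162, minus strand: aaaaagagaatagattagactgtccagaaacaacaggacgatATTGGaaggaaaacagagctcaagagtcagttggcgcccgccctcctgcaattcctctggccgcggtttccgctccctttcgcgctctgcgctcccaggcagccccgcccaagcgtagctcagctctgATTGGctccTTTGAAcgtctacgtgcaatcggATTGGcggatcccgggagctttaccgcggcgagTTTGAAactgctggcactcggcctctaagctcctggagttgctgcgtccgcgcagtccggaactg
Plk1 held 2 matches and Cdk1 5, with no match overlapping another. RefSeq gave 35 promoters for 33 of the mitosis genes, of which 27 held TTTGAA (77.1%) and 24 held both motifs (68.6%). Over all 32851 promoters of the same length the shares were 17.9% and 6.95%, and over 46 promoters of DNA replication genes 15.2% and 10.9%. CCAAT alone was in 77.1% of the mitosis promoters, 56.5% of the replication promoters and 37.4% of all. A match describes these letters and is not a binding site.

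DNA replication genes rose in 39 of 47 tested members (83%, against 13.9% of all genes) and fell in 0, with a median of 2.09. Rrm2 (chromosome 12, 24708241 to 24714146), the regulated subunit of ribonucleotide reductase, had 138, 137 and 134 FPKM in the cocktail libraries, against 1.77, 1.94 and 1.92 in the naive libraries. Thymidine kinase (Tk1) had 88.1, 88.6 and 86.1 FPKM in the cocktail libraries, against 1.04, 1.06 and 1.18 in the naive libraries. Mcm10, which helps to fire origins, had 18.1 ± 0.159 FPKM in cocktail cells, against 0.22 ± 0.0289 in naive cells. The origin complex subunit gene Gins2 had 41.2 ± 0.367 FPKM in cocktail cells, against 1.54 ± 0.134 in naive cells. Among the 8 members not called were Pole2, a polymerase epsilon subunit gene, at 15.7 ± 0.733 FPKM in cocktail cells, against 13.2 ± 0.146 in naive cells, and the single-strand binding protein gene Rpa1 at 90.2 ± 0.767 FPKM in cocktail cells, against 69.5 ± 0.87 in naive cells.

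Quiescence genes and inhibitors of the cell cycle moved in both directions. Their list also holds the D cyclin genes and Cdk4 and Cdk6, which drive the cycle. Of 34 members 31 were tested, and 8 rose and 8 fell (25.8% each way, against 13.9% of all genes higher and 8.59% lower), with a median of -0.09. Cdkn1a (chromosome 17, 29090976 to 29100727), encoding the inhibitor p21, had 44.5, 42.7 and 42.4 FPKM in the cocktail libraries, against 0.0814, 0.0601 and 0.0202 in the naive libraries. Cdkn2a (chromosome 4, 89274471 to 89294653), the locus of p16 and p19Arf, had 20.6, 21.2 and 23.1 FPKM in the cocktail libraries, against 0, 0.1002 and 0.143 in the naive libraries. Cdkn2c, encoding p18, had 36.6 ± 2.46 FPKM in cocktail cells, against 3.01 ± 0.255 in naive cells. All 3 inhibitor genes rose in the same libraries in which mitosis genes rose. The members that fell included quiescence genes of the transducer of ERBB2 and BTG family, Btg1 at 37.7 ± 0.818 FPKM in cocktail cells, against 237 ± 1.72 in naive cells and Tob1 at 6.46 ± 0.364 FPKM in cocktail cells, against 24.7 ± 0.402 in naive cells, and the glucocorticoid-induced gene Tsc22d3, known as Gilz, at 22.5 ± 0.87 FPKM in cocktail cells, against 229 ± 1.48 in naive cells.

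Cytotoxic granule genes rose more often than they fell. All 30 members were tested, with a median of 0.92. Of these, 13 rose (43.3%, against 13.9% of all genes) and 2 fell (6.67%, against 8.59%). Gzmb (chromosome 14, 56258838 to 56262260), encoding granzyme B, had 1385, 1371 and 1366 FPKM in the cocktail libraries, against 3.96, 3.92 and 3.84 in the naive libraries, the highest fold change among the named genes at 8.13 ± 0.00973 (adjusted p = 4.25e-27) and a ratio of means of 352. Gzma (chromosome 13, 113093825 to 113100981), encoding granzyme A, had 209, 199.9 and 206 FPKM in the cocktail libraries, against 5.68, 6.76 and 6.71 in the naive libraries. Gzmc (chromosome 14, 56231441 to 56234656), a granzyme of strongly activated cells, had 90.4, 91.2 and 89.2 FPKM in the cocktail libraries, against 0.286, 0.188 and 0.284 in the naive libraries. The granzyme genes of the chromosome 14 cluster are close relatives, so reads could be divided among them and their separate levels are uncertain. Prf1 (chromosome 10, 61297833 to 61304680), encoding perforin, the pore that lets granzymes into a target cell, went the other way, with 12.2, 11.7 and 11.1 FPKM in the cocktail libraries, against 49.3, 49 and 48.5 in the naive libraries (log2 fold change -1.98 ± 0.0359, adjusted p = 2.64e-15). The 3 cocktail libraries all lay below the 3 naive libraries, and the cocktail mean was 0.239 times the naive mean. The death ligand gene Fasl (chromosome 1, 161780689 to 161788495) had 35.7, 34.9 and 34.3 FPKM in the cocktail libraries, against 0.33, 0.296 and 0.319 in the naive libraries. The serine protease inhibitor gene Serpinb6a had 175 ± 2.58 FPKM in cocktail cells, against 6.95 ± 0.237 in naive cells. The protease gene Ctsc, whose product activates granzymes, had 62.1 ± 1.28 FPKM in cocktail cells, against 62.5 ± 0.433 in naive cells with overlapping libraries. The priming factor gene Unc13d had 44.9 ± 0.625 FPKM in cocktail cells, against 50.3 ± 1.12 in naive cells and was not called, and Ctsl, encoding cathepsin L, fell to 1.94 ± 0.215 FPKM in cocktail cells, against 8.19 ± 0.122 in naive cells.

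Secreted cytokine genes rose in 8 of 13 tested members of 24 (61.5%, against 13.9% of all genes) and fell in 0. Lif (chromosome 11, 4257557 to 4272514), the leukaemia inhibitory factor gene, had 44.4, 44.2 and 45.1 FPKM in the cocktail libraries, against 0.154, 0.0855 and 0.112 in the naive libraries. The granulocyte and macrophage growth factor gene Csf2 had 11.4 ± 0.621 FPKM in cocktail cells, against 0.0277 ± 0.048 in naive cells. Vegfa, the angiogenic factor gene, had 15.6 ± 0.837 FPKM in cocktail cells, against 0.121 ± 0.0344 in naive cells. Ifng (chromosome 10, 118441046 to 118445892), encoding interferon gamma, had 6.25, 5.95 and 7.67 FPKM in the cocktail libraries, against 0.173, 0.17 and 0.275 in the naive libraries; it rose by 2.65 ± 0.0788 and stayed under 8 FPKM in every library. Tnf had 31.2, 32 and 30.7 FPKM in the cocktail libraries, against 5.48, 6.21 and 5.77 in the naive libraries. Penk, the precursor of enkephalins, had 10.3 ± 0.357 FPKM in cocktail cells, against 0.0382 ± 0.0331 in naive cells. Tgfb1, at 67.6 ± 1.3 FPKM in cocktail cells, against 50.9 ± 0.29 in naive cells, and Il16, at 49.5 ± 0.842 FPKM in cocktail cells, against 98.5 ± 0.82 in naive cells, did not reach the minimum fold. Of 17 chemokine genes 8 were tested, and 4 rose (50%, against 13.9% of all genes) and 0 fell. Xcl1 (chromosome 1, 164931644 to 164935527), whose product attracts cross-presenting dendritic cells, had 105, 104 and 94.7 FPKM in the cocktail libraries, against 3.99, 2.31 and 1.98 in the naive libraries. Ccl3 and Ccl4, inflammatory chemokine genes, had 7.05 ± 0.757 FPKM in cocktail cells, against 0.236 ± 0.102 in naive cells for Ccl3 and 15.5 ± 1.64 FPKM in cocktail cells, against 1.01 ± 0.282 in naive cells for Ccl4. Ccl5, which memory cells store, had 41.1 ± 2.75 FPKM in cocktail cells, against 59.8 ± 2.74 in naive cells and was not called.

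The list of inhibitory receptors rose in 14 of 19 tested members of 21 (73.7%, against 13.9% of all genes) and fell in 1 (5.26%, against 8.59%), with a median of 2.42. The list is broader than its name. It also holds the costimulator gene Tnfrsf9, the ligand genes Cd274, Pdcd1lg2 and Cd200, and the enzyme genes Entpd1 and Nt5e. Lag3 (chromosome 6, 124904361 to 124911705), which binds MHC class II, had 89.6, 89.7 and 88.1 FPKM in the cocktail libraries, against 0.328, 0.399 and 0.574 in the naive libraries. Ctla4 (chromosome 1, 60887000 to 60915832), the competitor of CD28 for B7 ligands, had 98.2, 99.4 and 101 FPKM in the cocktail libraries, against 0.845, 0.95 and 0.658 in the naive libraries. Lilrb4, an immunoreceptor of mouse myeloid and activated T cells, had 112, 116 and 113 FPKM in the cocktail libraries, against 1.002, 0.901 and 0.625 in the naive libraries; it has near-identical relatives, so its level is uncertain. Tigit had 41.3 ± 0.954 FPKM in cocktail cells, against 1.08 ± 0.181 in naive cells. Cd160 had 80.1 ± 0.798 FPKM in cocktail cells, against 7.06 ± 0.0458 in naive cells. In each of these the naive libraries were below the lowest cocktail library. Pdcd1, encoding PD-1, had 32.7, 32.6 and 31.7 FPKM in the cocktail libraries, against 0.624, 0.534 and 0.998 in the naive libraries. Havcr2, encoding TIM-3, had 9.32 ± 0.148 FPKM in cocktail cells, against 0.114 ± 0.0429 in naive cells. Pdcd1 and Havcr2 both rose; they lay outside the naming rule and were chosen after their values were seen. The member that fell was Btla, a receptor of resting lymphocytes, with 13.4 ± 0.247 FPKM in cocktail cells, against 30.4 ± 0.858 in naive cells. Cd274, encoding the PD-1 ligand, had 27.3 ± 0.481 FPKM in cocktail cells, against 18.2 ± 0.431 in naive cells. Cd96 had 150.1 ± 1.62 FPKM in cocktail cells, against 116 ± 1.83 in naive cells, and neither was called.

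Activation receptors and costimulators gave 11 risen (40.7%, against 13.9% of all genes) and 6 fallen (22.2%, against 8.59%) of 27 tested. Il2ra (chromosome 2, 11642807 to 11693193), the high-affinity chain of the IL-2 receptor, had 71.8, 73.4 and 72.7 FPKM in the cocktail libraries, against 0.534, 0.541 and 0.456 in the naive libraries. Ly6a, encoding Sca-1, had 1696, 1694 and 1686 FPKM in the cocktail libraries, against 84.6, 85.5 and 82.7 in the naive libraries. Its relative Ly6c1 had 354 ± 1.82 FPKM in cocktail cells, against 18.6 ± 0.484 in naive cells; Ly6 genes are similar in sequence and their separate levels are uncertain. Cd69, an early activation antigen that retains cells in tissue, was lower in cocktail cells, with 35.3, 36.9 and 36.2 FPKM in the cocktail libraries, against 111, 109 and 108 in the naive libraries. Cd7 (chromosome 11, 121036747 to 121039418) fell most, with 15, 15.2 and 15.6 FPKM in the cocktail libraries, against 190.2, 191 and 189 in the naive libraries, and Cd6 had 48.2 ± 0.51 FPKM in cocktail cells, against 162 ± 2.48 in naive cells. Among 27 tested members of the TNF superfamily 15 rose (55.6%, against 13.9% of all genes) and 3 fell (11.1%, against 8.59%), with a median of 1.43. The ligand genes Tnfsf4, encoding OX40L, and Tnfsf11, encoding RANKL, had 22.7 ± 0.135 FPKM in cocktail cells, against 0.0407 ± 0.0506 in naive cells for Tnfsf4 and 26.6 ± 1.03 FPKM in cocktail cells, against 0.249 ± 0.0197 in naive cells for Tnfsf11. The receptor gene Tnfrsf9, encoding the costimulator 4-1BB, had 65.5, 61.5 and 64.5 FPKM in the cocktail libraries, against 2.17, 2.19 and 2.02 in the naive libraries. Those that fell were Tnfrsf25, the receptor DR3, at 3.02 ± 0.212 FPKM in cocktail cells, against 18.1 ± 1.22 in naive cells, Cd40lg at 1.84 ± 0.154 FPKM in cocktail cells, against 7.8 ± 0.832 in naive cells, and Relt at 15.4 ± 0.701 FPKM in cocktail cells, against 36.3 ± 0.478 in naive cells. Ltb, encoding lymphotoxin beta, had 564 ± 6.02 FPKM in cocktail cells, against 724 ± 10.1 in naive cells and was not called.

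NK-type receptor genes rose in 10 of 15 tested members of 27 (66.7%, against 13.9% of all genes) and fell in 0. Klrc1 (chromosome 6, 129666015 to 129678973), encoding NKG2A, had 97.2, 98.3 and 92.7 FPKM in the cocktail libraries, against 1.66, 0.968 and 1.39 in the naive libraries. Klrk1, encoding NKG2D, had 83.5 ± 0.857 FPKM in cocktail cells, against 6.09 ± 0.341 in naive cells. Klrd1, encoding CD94, the partner of NKG2A, had 563 ± 2.92 FPKM in cocktail cells, against 220.4 ± 2.997 in naive cells. Klra5, a Ly49 gene of a near-identical family and so of uncertain level, had 16.7 ± 0.193 FPKM in cocktail cells, against 0.157 ± 0.104 in naive cells. Hcst, encoding the NKG2D adaptor DAP10, had 148 ± 2.84 FPKM in cocktail cells, against 266 ± 0.75 in naive cells and was not called.

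Effector and memory transcription factors gave 14 risen (40%, against 13.9% of all genes) and 3 fallen (8.57%, against 8.59%) of 35 tested. Bhlhe40 (chromosome 6, 108660629 to 108666925), a regulator of cytokine production and mitochondrial function in T cells, had 65.8, 64.8 and 65.2 FPKM in the cocktail libraries, against 0.465, 0.352 and 0.556 in the naive libraries. Zbtb32, a repressor of effector responses, had 32.9 ± 0.273 FPKM in cocktail cells, against 0.475 ± 0.066 in naive cells. Batf3 had 16.6 ± 1.01 FPKM in cocktail cells, against 0.136 ± 0.0669 in naive cells. Runx2 had 21.1 ± 0.439 FPKM in cocktail cells, against 1.32 ± 0.077 in naive cells. Id2 (chromosome 12, 25093799 to 25097140), which favours effector cells, had 333, 334 and 331 FPKM in the cocktail libraries, against 37.1, 35.6 and 36.1 in the naive libraries, while its counterpart Id3 was lower, as given above. Eomes, a T-box factor of memory and effector cells, had 28, 27.9 and 28.2 FPKM in the cocktail libraries, against 19.3, 19.8 and 19.8 in the naive libraries; the libraries did not overlap, but the fold change of 0.49 ± 0.0241 was under the minimum. Tbx21, encoding T-bet, had 19.1 ± 0.0531 FPKM in cocktail cells, against 2.32 ± 0.222 in naive cells. Irf4, induced by receptor signals, had 20.2 ± 0.359 FPKM in cocktail cells, against 2.39 ± 0.193 in naive cells; both rose, and both were chosen after their values were seen. Tox and Bcl6 fell, with 7.76 ± 0.275 FPKM in cocktail cells, against 20.6 ± 0.718 in naive cells for Tox and 1.42 ± 0.0713 FPKM in cocktail cells, against 5.57 ± 0.0937 in naive cells for Bcl6.

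Receptors of cytokines and their signal transducers gave 9 risen (25%, against 13.9% of all genes) and 8 fallen (22.2%, against 8.59%) of 36 tested, with a median of -0.09. The IL-12 receptor genes Il12rb2 and Il12rb1 rose, with 67.8, 69.9 and 69.1 FPKM in the cocktail libraries, against 1.92, 2.02 and 1.98 in the naive libraries for Il12rb2 and 50.9 ± 0.718 FPKM in cocktail cells, against 5.57 ± 0.119 in naive cells for Il12rb1. The IL-18 receptor chain gene Il18rap had 39.4 ± 1.5 FPKM in cocktail cells, against 3.01 ± 0.122 in naive cells. In the other direction, Il6st, encoding the signalling chain gp130 of the IL-6 family, had 5.8, 6.19 and 6.22 FPKM in the cocktail libraries, against 71.7, 71.2 and 70.4 in the naive libraries. Il27ra, which pairs with it, had 60.03 ± 0.817 FPKM in cocktail cells, against 154 ± 1.54 in naive cells. The interferon gamma receptor chains moved in opposite directions. Ifngr1 rose, with 509 ± 0.795 FPKM in cocktail cells, against 144 ± 2.72 in naive cells. Ifngr2 fell, with 4.69 ± 0.345 FPKM in cocktail cells, against 26 ± 0.805 in naive cells. Tgfbr2 had 36.2 ± 0.734 FPKM in cocktail cells, against 105 ± 1.34 in naive cells and fell. For the cytokines of the cocktail, the receptor genes Il21r and Il2rg, the shared gamma chain, had 60.6 ± 0.813 FPKM in cocktail cells, against 119.9 ± 1.27 in naive cells for Il21r and 487 ± 3.91 FPKM in cocktail cells, against 575 ± 6.27 in naive cells for Il2rg, and neither reached the minimum fold; both were chosen after their values were seen, and Il7r is given above. Of 23 feedback genes 5 rose and 5 fell (21.7% each way, against 13.9% of all genes higher and 8.59% lower). Cish (chromosome 9, 107296026 to 107302784) and Socs2, targets of STAT5, had 120.3, 119 and 119 FPKM in the cocktail libraries, against 3.97, 4.17 and 4.28 in the naive libraries for Cish and 13.7 ± 0.286 FPKM in cocktail cells, against 0.159 ± 0.0363 in naive cells for Socs2. Socs3, a brake on IL-6 family signals, fell, with 15.4, 15.1 and 15.7 FPKM in the cocktail libraries, against 75.1, 74.9 and 74.5 in the naive libraries. Dusp2 and Dusp10, phosphatases of MAP kinases, had 31.4 ± 0.611 FPKM in cocktail cells, against 114 ± 1.58 in naive cells for Dusp2 and 5.32 ± 0.225 FPKM in cocktail cells, against 29.9 ± 1.16 in naive cells for Dusp10.

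Genes of the Wnt and beta-catenin pathway, on which TWS119 acts, were tested in 23 of 36 members, with a median of -0.56. Of these, 2 rose (8.7%, against 13.9% of all genes) and 8 fell (34.8%, against 8.59%). Axin2 (chromosome 11, 108920349 to 108950783), a widely used target gene of beta-catenin, had 1.74, 1.69 and 1.86 FPKM in the cocktail libraries, against 11.1, 11.2 and 10.8 in the naive libraries (log2 fold change -2.12 ± 0.0378). Znrf3, another target and a brake on Wnt receptors, had 1.69 ± 0.166 FPKM in cocktail cells, against 8.11 ± 0.171 in naive cells. The corepressor gene Tle1 had 0.326 ± 0.0908 FPKM in cocktail cells, against 5.05 ± 0.14 in naive cells. These 3 fell together with Tcf7 and Lef1. Ctnnbip1, an inhibitor of beta-catenin, rose, with 5.24 ± 0.159 FPKM in cocktail cells, against 0.461 ± 0.0734 in naive cells. With a pseudocount of 5, Znrf3, Tle1 and Ctnnbip1 were no longer called, at log2 fold changes of -0.97, -0.92 and 0.91. Myc (chromosome 15, 61985391 to 61990374) had 68.6, 71.6 and 69.4 FPKM in the cocktail libraries, against 62.7, 61.8 and 65.5 in the naive libraries; the difference of 0.14 ± 0.0218 was under the minimum fold. The kinase gene Gsk3a had 44.3 ± 0.777 FPKM in cocktail cells, against 47.4 ± 0.929 in naive cells. Ctnnb1, encoding beta-catenin and chosen after its values were seen, had 88.1 ± 0.98 FPKM in cocktail cells, against 105 ± 0.28 in naive cells; neither was called.

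The T cell receptor complex and its proximal signalling genes gave 0 risen and 9 fallen (25%, against 8.59% of all genes) of 36 tested, with a median of -0.53. The kinase gene Txk had 11, 11.2 and 10.9 FPKM in the cocktail libraries, against 75.3, 72.8 and 74.9 in the naive libraries. The adaptor gene Trat1 had 7.57 ± 0.237 FPKM in cocktail cells, against 37.6 ± 2.000 in naive cells. Pag1, an adaptor that recruits the inhibitory kinase CSK, had 6.93 ± 0.148 FPKM in cocktail cells, against 29.96 ± 0.381 in naive cells. The central kinase gene Lck, at 390.0 ± 1.02 FPKM in cocktail cells, against 572 ± 4.28 in naive cells, and the zeta chain gene Cd247, at 168 ± 2.01 FPKM in cocktail cells, against 282 ± 4.61 in naive cells, did not reach the minimum fold. Immediate early genes, which cells switch on within minutes of a signal, gave 4 risen (13.8%, against 13.9% of all genes) and 12 fallen (41.4%, against 8.59%) of 29. Fos (chromosome 12, 85473890 to 85477273) had 9.46, 9.98 and 10.1 FPKM in the cocktail libraries, against 64.7, 63.4 and 65 in the naive libraries, and Zfp36, encoding the mRNA-decay factor tristetraprolin, 22.5, 21.4 and 22.9 FPKM in the cocktail libraries, against 180.0, 175 and 177 in the naive libraries. Nfkbia, the inhibitor of NF-kappaB, had 37.6 ± 0.248 FPKM in cocktail cells, against 149 ± 1.56 in naive cells. Jun went the other way, with 47.8 ± 0.959 FPKM in cocktail cells, against 22.5 ± 0.986 in naive cells, and Ier3 with 10.9 ± 0.489 FPKM in cocktail cells, against 2.68 ± 0.344 in naive cells.

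Glycolysis genes rose in 18 of 30 tested members (60%, against 13.9% of all genes) and fell in 2 (6.67%, against 8.59%). Their median was 1.80, in a culture that held the glycolysis inhibitor 2-deoxyglucose. Slc16a3 (chromosome 11, 120948480 to 120960868), the lactate exporter MCT4, had 85.5, 86 and 86.3 FPKM in the cocktail libraries, against 0.913, 0.777 and 0.707 in the naive libraries. Tpi1 had 789 ± 7.24 FPKM in cocktail cells, against 28.9 ± 0.355 in naive cells. Pgk1 had 1584 ± 8.99 FPKM in cocktail cells, against 118 ± 1.76 in naive cells and Gapdh 4800.1, 4775 and 4772 FPKM in the cocktail libraries, against 455, 455 and 451 in the naive libraries. The named enzymes rose by log2 fold changes of 4.73 ± 0.00868 for Tpi1, 3.73 ± 0.00946 for Pgk1 and 3.40 ± 0.0044 for Gapdh; all 3 have processed pseudogenes, so reads could be divided with them. Pdk1, a brake on the entry of pyruvate into mitochondria, had 53.5 ± 0.167 FPKM in cocktail cells, against 59.95 ± 0.783 in naive cells and was not called, while Pdk2 fell, with 0.58 ± 0.0692 FPKM in cocktail cells, against 5.12 ± 0.151 in naive cells. Hypoxia genes rose in 15 of 25 tested members (60%, against 13.9% of all genes) and fell in 0, with a median of 1.61. Bnip3 (chromosome 7, 138890836 to 138909519), a mitophagy receptor, had 99.5, 97.8 and 100.4 FPKM in the cocktail libraries, against 2.46, 2.6 and 3.37 in the naive libraries. The collagen-modifying enzyme gene Plod2 had 33.9 ± 0.13 FPKM in cocktail cells, against 0.489 ± 0.0534 in naive cells. Ddit4, a stress-induced inhibitor of mTORC1, was not called, with 65.8 ± 0.425 FPKM in cocktail cells, against 122 ± 1.85 in naive cells.

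The amino acid response list gave 17 risen (53.1%, against 13.9% of all genes) and 0 fallen of 32 tested. Asns (chromosome 6, 7675169 to 7693254), encoding asparagine synthetase, had 42.6, 42.3 and 41.8 FPKM in the cocktail libraries, against 0.121, 0.119 and 0.0999 in the naive libraries. The stress-induced pseudokinase gene Trib3 had 13.3 ± 0.46 FPKM in cocktail cells, against 1.13 ± 0.158 in naive cells. The serine synthesis gene Psat1 had 85.5 ± 1.94 FPKM in cocktail cells, against 16.3 ± 0.309 in naive cells. The translation inhibitor gene Eif4ebp1 had 63.4 ± 1.16 FPKM in cocktail cells, against 7.59 ± 0.835 in naive cells. The glutamine transporter gene Slc1a5 was not called, with 127 ± 1.12 FPKM in cocktail cells, against 121 ± 0.755 in naive cells. Sterol and fatty acid synthesis genes rose in 13 of 33 (39.4%, against 13.9% of all genes) and fell in 2 (6.06%, against 8.59%). The desaturase gene Scd2 had 88.8 ± 0.104 FPKM in cocktail cells, against 11.3 ± 0.143 in naive cells. The sterol enzyme gene Sqle had 27.5 ± 0.756 FPKM in cocktail cells, against 3.09 ± 0.0341 in naive cells. Abcg1, which exports sterols, fell, with 5.77 ± 0.163 FPKM in cocktail cells, against 21.6 ± 0.265 in naive cells. Of 25 fatty acid oxidation genes 5 rose and 0 fell, or 20% higher against 13.9% of all genes. Acadl, a long-chain acyl-CoA dehydrogenase, had 130.3, 128 and 131 FPKM in the cocktail libraries, against 21.4, 22.3 and 20.9 in the naive libraries, while the very-long-chain enzyme gene Acadvl had 34.4 ± 0.467 FPKM in cocktail cells, against 39.5 ± 0.944 in naive cells and was not called. Of 64 oxidative phosphorylation genes, 1 rose and 1 fell, although 60 of 64 had a positive fold change (median 0.48). The member that rose was Cox7c, a cytochrome oxidase subunit gene, at 248 ± 9.04 FPKM in cocktail cells, against 115 ± 2.83 in naive cells (log2 fold change 1.09 ± 0.0259, 0.92 and no longer called after quantile normalization). The member that fell was Ndufa4, at 145 ± 5.17 FPKM in cocktail cells, against 291 ± 4.25 in naive cells; its -1.0 ± 0.0362 lay at the minimum fold, and the call was lost without replicate 1 or 3 of either population, at -0.99 to -1.0.

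Type I interferon response genes rose in 21 of 39 tested members (53.8%, against 13.9% of all genes) and fell in 1 (2.56%, against 8.59%), with a median of 1.04. The antiviral membrane protein genes Ifitm2 (chromosome 7, 140954837 to 140955987), Ifitm1 and Ifitm3 rose, with 123, 132 and 127 FPKM in the cocktail libraries, against 0.99, 1.62 and 0.981 in the naive libraries for Ifitm2, 57.3 ± 1.19 FPKM in cocktail cells, against 0.887 ± 0.271 in naive cells for Ifitm1 and 26.4 ± 0.493 FPKM in cocktail cells, against 3.09 ± 0.628 in naive cells for Ifitm3; they are close paralogs, and reads could be divided among them. Mx1 had 66.5, 66.5 and 66.2 FPKM in the cocktail libraries, against 7.46, 7.49 and 7.86 in the naive libraries. The member that fell was Oas2, at 5.1 ± 0.187 FPKM in cocktail cells, against 14.2 ± 0.184 in naive cells, and the transcription factor gene Irf9 had 69.99 ± 1.72 FPKM in cocktail cells, against 71.5 ± 0.271 in naive cells with overlapping libraries. Among interferon-inducible GTPases 6 of 17 rose and 0 fell, including Iigp1 at 90.1 ± 0.923 FPKM in cocktail cells, against 9.83 ± 0.298 in naive cells and Gbp6 at 130.0 ± 0.857 FPKM in cocktail cells, against 32.5 ± 1.39 in naive cells. Their relatives Tgtp1 and Tgtp2 had 23.5 ± 0.142 FPKM in cocktail cells, against 42 ± 0.524 in naive cells for Tgtp1 and 31.1 ± 0.525 FPKM in cocktail cells, against 49.3 ± 1.15 in naive cells for Tgtp2 and were not called; both families hold similar copies, so single levels are uncertain. MHC class I presentation genes gave 1 risen of 21 (4.76%, against 13.9% of all genes) and 0 fallen. That gene, Psmb9, an immunoproteasome subunit, had 466 ± 5.04 FPKM in cocktail cells, against 183 ± 1.03 in naive cells. The class I heavy chain gene H2-K1 had 2203 ± 9.45 FPKM in cocktail cells, against 2160.4 ± 8.78 in naive cells, a log2 fold change of 0.03 ± 0.00545.

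Metallothioneins, small proteins that bind zinc and copper, had some of the highest fold changes. Of 13 zinc-related genes tested 5 rose (38.5%, against 13.9% of all genes) and 1 fell (7.69%, against 8.59%), with a median of -0.15. Mt1 (chromosome 8, 94179082 to 94180327) had 208, 201 and 205 FPKM in the cocktail libraries, against 0.517, 0.102 and 0.205 in the naive libraries. Mt2 (chromosome 8, 94172664 to 94173568) had 166, 162 and 165 FPKM in the cocktail libraries, against 0.198, 0.195 and 0.0984 in the naive libraries. These are log2 fold changes of 7.35 ± 0.0795 for Mt1 and 7.15 ± 0.0272 for Mt2, and the 2 genes are related and adjacent, so reads shared by both are uncertain. The zinc exporter gene Slc30a1, which the same metal-sensing factor controls, was not called, with 2.89 ± 0.0217 FPKM in cocktail cells, against 6.54 ± 0.184 in naive cells, and Slc30a4 rose, with 21.3 ± 0.256 FPKM in cocktail cells, against 8.81 ± 0.28 in naive cells. The importer gene Slc39a6 rose with 33.4 ± 0.131 FPKM in cocktail cells, against 13.6 ± 0.409 in naive cells, and Slc39a10 fell with 3.24 ± 0.151 FPKM in cocktail cells, against 8.32 ± 0.119 in naive cells.

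The promoters of Mt1 and Mt2 are shown because both genes lay near 0 in naive cells and above 100 FPKM in cocktail cells, and because metal-response elements with the core TGCACNC or TGCGCNC are known from both. The sequences are RefSeq windows on GRCm38.p6 as above, with matches to either core on both strands in capitals.
Mt1, chr8:94178839-94179138, plus strand: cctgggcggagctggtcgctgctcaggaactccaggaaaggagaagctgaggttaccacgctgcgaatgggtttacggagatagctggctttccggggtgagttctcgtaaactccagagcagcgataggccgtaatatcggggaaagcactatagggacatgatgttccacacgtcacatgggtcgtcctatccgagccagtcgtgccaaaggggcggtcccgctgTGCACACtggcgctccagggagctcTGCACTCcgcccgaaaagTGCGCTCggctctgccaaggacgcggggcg
Mt2, chr8:94172368-94172667, plus strand: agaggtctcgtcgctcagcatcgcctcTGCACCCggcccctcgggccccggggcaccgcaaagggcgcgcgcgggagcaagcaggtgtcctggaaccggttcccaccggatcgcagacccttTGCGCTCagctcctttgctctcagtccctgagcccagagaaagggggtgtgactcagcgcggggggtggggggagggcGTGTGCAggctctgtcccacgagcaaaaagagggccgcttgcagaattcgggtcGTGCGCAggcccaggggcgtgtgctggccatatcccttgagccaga
Mt1 held 3 matches and Mt2 held 4, with none overlapping another. At least 1 match was in 25.7% of all 32851 promoters of this length, at least 3 in 1.97% and at least 4 in 0.517%. Over the 46 promoters of DNA replication genes these shares were 63%, 8.7% and 4.35%. The matches describe letters in this window and not occupancy.

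S100 proteins, annexins and galectins are calcium- and sugar-binding proteins of activated and motile cells. Of 27 tested members 14 rose (51.9%, against 13.9% of all genes) and 2 fell (7.41%, against 8.59%). Lgals1 (chromosome 15, 78926725 to 78930465), encoding galectin-1, had 1816, 1802 and 1800.2 FPKM in the cocktail libraries, against 52.5, 52.6 and 51.7 in the naive libraries. Lgals3 (chromosome 14, 47367751 to 47386160) had 122, 119 and 117 FPKM in the cocktail libraries, against 0.473, 0.873 and 0.792 in the naive libraries. S100a4 had 264 ± 8.01 FPKM in cocktail cells, against 4.31 ± 0.168 in naive cells. S100a6 had 255 ± 5.76 FPKM in cocktail cells, against 5.43 ± 0.559 in naive cells. Anxa2 had 267 ± 2.47 FPKM in cocktail cells, against 9.04 ± 0.265 in naive cells. The members that fell, S100a8 and S100a9, are neutrophil genes, with 1.67 ± 0.369 FPKM in cocktail cells, against 12.7 ± 1.34 in naive cells for S100a8 and 1.22 ± 0.341 FPKM in cocktail cells, against 14.2 ± 1.35 in naive cells for S100a9. Both also belong to the 8 erythroid, platelet and neutrophil markers, so the sum of these is no separate check. It was 3.96 to 4.82 FPKM in cocktail and 24.5 to 28.5 FPKM in naive libraries. In naive libraries nearly all of it came from S100a8 and S100a9. Pf4 made up much of the rest in cocktail cells, at 1.27 ± 0.311 FPKM, against 0 in naive cells. The part of neutrophils in these values was not tested. Survival and death genes rose in 12 of 32 (37.5%, against 13.9% of all genes) and fell in 4 (12.5%, against 8.59%). The inflammatory caspase gene Casp1 had 61 ± 0.598 FPKM in cocktail cells, against 3.31 ± 0.24 in naive cells. The survival gene Mcl1 fell, with 104 ± 1.62 FPKM in cocktail cells, against 221 ± 2.8 in naive cells, as did the death gene Bbc3, encoding PUMA, with 8.96 ± 0.285 FPKM in cocktail cells, against 39.5 ± 0.668 in naive cells. Bcl2a1b rose, with 40.7 ± 2.03 FPKM in cocktail cells, against 5.55 ± 0.45 in naive cells; it has near-identical copies and its own level is uncertain. Bcl2, chosen after its values were seen, had 93.2, 93.1 and 92.3 FPKM in the cocktail libraries, against 28.7, 27.9 and 27.4 in the naive libraries and rose.

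Transcripts of other cell types were low in both populations and mostly lower in cocktail cells. Of 10 B cell markers 9 were tested, and 0 rose and 8 fell; their sum was 2.99 to 3.35 FPKM in cocktail and 46.9 to 48.3 in naive libraries, and Ms4a1 and Pax5 were listed at 0 in all cocktail libraries. Cd79b had 1.96 ± 0.163 FPKM in cocktail cells, against 22.6 ± 0.144 in naive cells. Cd79a had 0.172 ± 0.0488 FPKM in cocktail cells, against 9.35 ± 0.408 in naive cells. Of 23 dendritic cell and macrophage markers 13 were tested, and 1 rose and 4 fell, with a sum of 64.9 to 68.4 FPKM in cocktail and 131 to 135 in naive libraries. The class II genes Cd74, H2-Aa and H2-Eb1 fell, with 12.5 ± 0.104 FPKM in cocktail cells, against 57.3 ± 0.609 in naive cells for Cd74, 1.31 ± 0.134 FPKM in cocktail cells, against 21.8 ± 1.81 in naive cells for H2-Aa and 0.764 ± 0.122 FPKM in cocktail cells, against 10.3 ± 0.464 in naive cells for H2-Eb1, while H2-Ab1 had 13.7 ± 1.34 FPKM in cocktail cells, against 15 ± 0.817 in naive cells with overlapping libraries. Class II genes are shared by B cells and dendritic cells, and the part of either in these values was not tested. They held most of the naive sum of the dendritic cell and macrophage markers, and other members went both ways. Csf2ra had 4.2 ± 0.209 FPKM in cocktail cells, against 2.29 ± 0.515 in naive cells. Cd68 had 3.23 ± 0.418 FPKM in cocktail cells, against 4.46 ± 0.192 in naive cells, and neither was called. Lyz2, the lysozyme gene of myeloid cells, rose, with 21.8, 21.6 and 20.5 FPKM in the cocktail libraries, against 7.54, 8.86 and 8.25 in the naive libraries; with a pseudocount of 5 its fold change of 1.28 ± 0.0508 became 0.99, under the minimum. Zbtb7b, the factor of the CD4 lineage that CD8 cells can express on activation, rose. It had 9.34 ± 0.0888 FPKM in cocktail cells, against 0.234 ± 0.00417 in naive cells. Zbtb7b is also 1 of 5 CD4 T cell markers, whose sum was 18.5 to 19.3 FPKM in cocktail and 45.1 to 47.4 in naive libraries. Most of the naive sum came from the receptor adaptor gene Trat1, given above. Cd4 itself had 0.0112 ± 0.0194 FPKM in cocktail cells, against 0.305 ± 0.0365 in naive cells. Of 5 NK cell markers 2 were tested, Eomes and Klrb1c, and 0 were called. Of 5 gamma delta T cell markers 1 was tested and fell, Blk, at 0.0095 ± 0.00823 FPKM in cocktail cells, against 1.24 ± 0.0352 in naive cells, which B cells also express. Of 9 erythroid, platelet and neutrophil markers 3 were tested, and the platelet gene Pf4, listed at 0 in the 3 naive libraries and at 1.61, 1.01 and 1.18 FPKM in the cocktail libraries, was the 1 that rose. Klrb1c, Blk, Pf4, Cd4, Csf2ra and Cd68 were named after their values were seen.

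**Figure D3:**
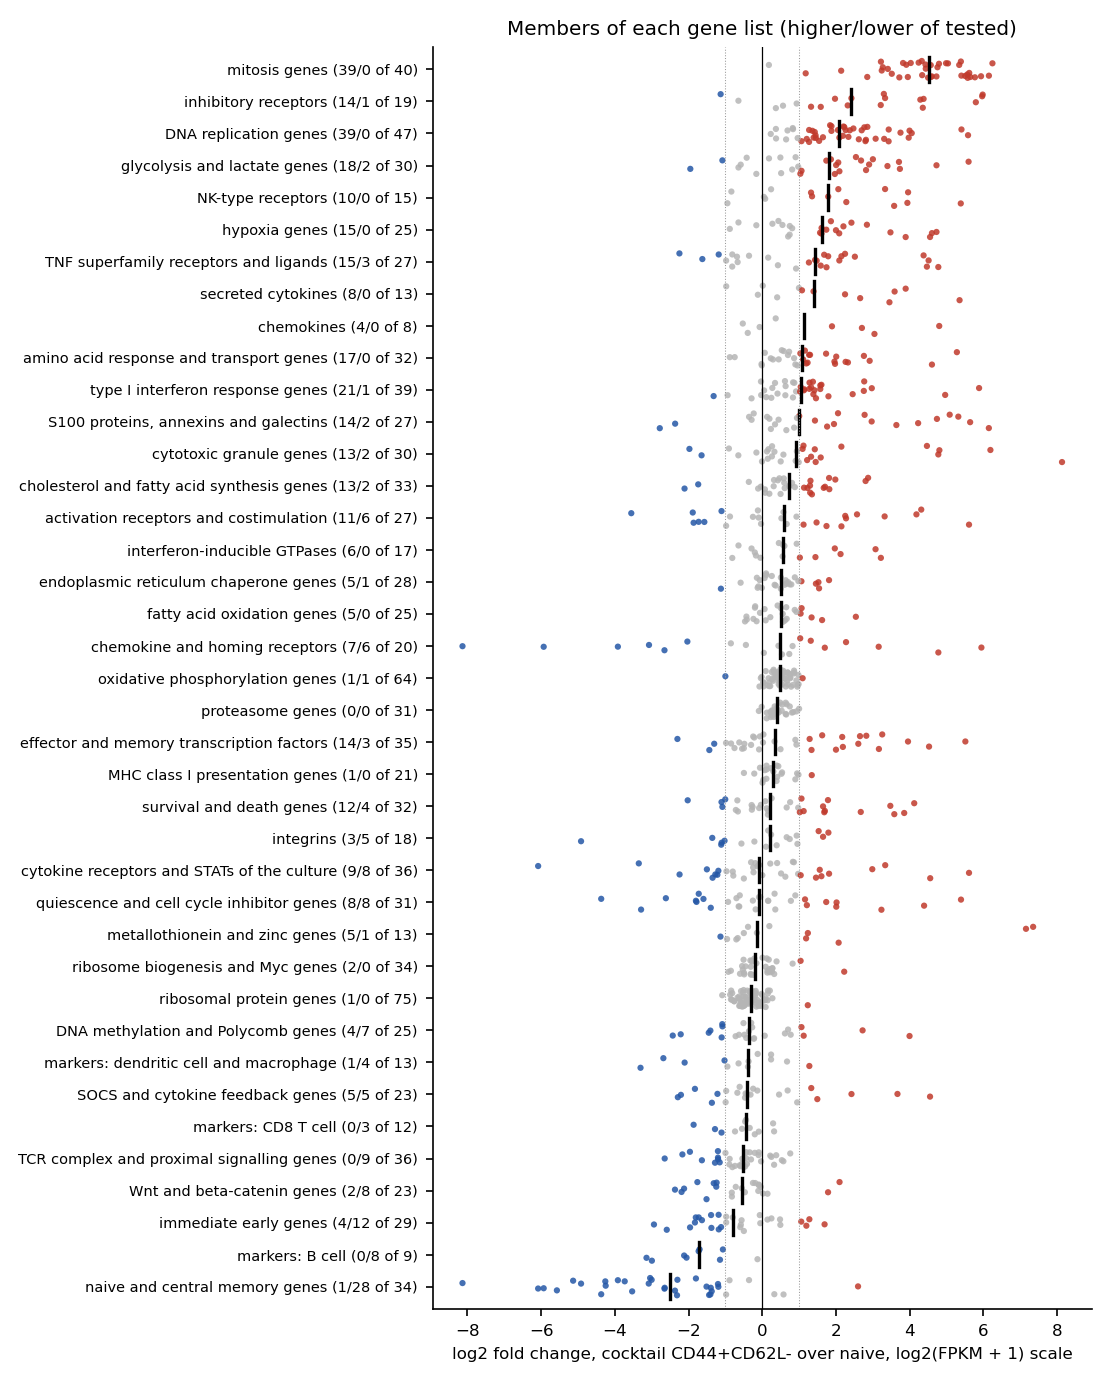
Log2 fold change of cocktail CD44+CD62L- over naive cells on the log2(FPKM + 1) scale for every tested member of each gene list, 1 point per gene, with red for higher, blue for lower and grey for not called; the black bar is the list median and dotted lines mark the minimum fold. Lists run from mitosis genes (39 higher, 0 lower of 40) at the top to naive and central memory genes (1 higher, 28 lower of 34) at the bottom.

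Some of the largest changes lay outside these lists. Nrn1 (chromosome 13, 36725361 to 36735131), encoding neuritin, a surface-anchored protein first described in neurons, had 206, 203 and 204 FPKM in the cocktail libraries, against 0.474, 0.393 and 0.446 in the naive libraries (log2 fold change 7.16 ± 0.0276, adjusted p = 4.35e-22). Serpina3g (chromosome 12, 104236245 to 104241939), a serine protease inhibitor of activated T cells with close paralogs and so of uncertain level, had 219, 218 and 219.9 FPKM in the cocktail libraries, against 1.53, 2.01 and 1.52 in the naive libraries. Upp1 (chromosome 11, 9118103 to 9136170), encoding uridine phosphorylase, had 75.6, 75.7 and 75.7 FPKM in the cocktail libraries, against 0.0661, 0.065 and 0.0328 in the naive libraries. Fam64a, a gene of proliferating cells, had 64.3 ± 0.846 FPKM in cocktail cells, against 0.1002 ± 0.0421 in naive cells. In these 4 every naive library was at about 2 FPKM or less. Mtap6, a microtubule-associated protein gene, was listed at 0 in all 3 naive libraries and had 11.1, 11.8 and 11.3 FPKM in the cocktail libraries; no fold is given for it. Among the lowest, Dtx1 (chromosome 5, 120680202 to 120711927), encoding the Notch pathway regulator Deltex, had 0.222, 0.311 and 0.184 FPKM in the cocktail libraries, against 97, 93.2 and 93.6 in the naive libraries (log2 fold change -6.27 ± 0.0399). St6gal1 (chromosome 16, 23224740 to 23360350), the sialyltransferase that caps glycans, had 1.02, 1.14 and 1.24 FPKM in the cocktail libraries, against 59.9, 60.3 and 60.8 in the naive libraries. Vipr1, the receptor of vasoactive intestinal peptide, had 0.176 ± 0.0474 FPKM in cocktail cells, against 32.7 ± 0.335 in naive cells. Pde2a, a cyclic nucleotide phosphodiesterase, had 3.3, 3.28 and 3.3 FPKM in the cocktail libraries, against 90.2, 89.5 and 90.3 in the naive libraries. Rcn3, a calcium-binding protein of the endoplasmic reticulum, had 0.905 ± 0.0654 FPKM in cocktail cells, against 52 ± 0.691 in naive cells. The transporter gene Slc16a5 had 0.0268 ± 0.0289 FPKM in cocktail cells, against 26.1 ± 0.859 in naive cells. The glutathione-cleaving enzyme gene Ggt1 had 1.07 ± 0.0511 FPKM in cocktail cells, against 39.1 ± 0.453 in naive cells. Fam101b had 0.345 ± 0.0524 FPKM in cocktail cells, against 75.3 ± 1.06 in naive cells. For these 8 genes the 3 cocktail libraries were all under 4 FPKM and the 3 naive libraries all above 25.

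Measured over all tested genes, naive cells were the population farthest from the cocktail CD44+CD62L- cells, at a root mean square log2 difference of 1.19, against 0.345 for cocktail CD44+CD62L+, 0.499 for cocktail CD44loCD62L+ and 0.703 for IL-2 CD44+CD62L- cells. The comparisons of other populations with naive cells share the naive libraries with this one, so levels are set side by side here and differences were tested directly. Directly against cocktail CD44+CD62L+ cells, 13 genes changed (0.116%), 9 higher (0.0801%) and 4 lower (0.0356%). Directly against IL-2 CD44+CD62L- cells, 882 changed (7.85%), 522 higher (4.64%) and 360 lower (3.2%).

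For many genes the change from naive cells was of like size in the other cultured populations. Il6ra was at 0.0411 ± 0.0272 FPKM in the cocktail CD44+CD62L- cells, 0.0467 ± 0.00554 in cocktail CD44+CD62L+, 0.351 ± 0.0464 in cocktail CD44loCD62L+ and 0.0508 ± 0.0127 in IL-2 cells, against 69.5 ± 0.967 in naive cells. Lag3 was at 89.1 ± 0.876, 89.2 ± 2.24, 95.9 ± 1.16 and 95.5 ± 1.99 FPKM in the same order of cultured cells, against 0.434 ± 0.127 in naive cells. Its direct differences from cocktail CD44+CD62L+ cells and IL-2 cells were 0.00 ± 0.0453 and -0.10 ± 0.0453 log2 units, neither of them called. Other genes held different levels by culture. Prf1 was at 11.7 ± 0.586, 12.3 ± 0.618 and 15.3 ± 0.474 FPKM in the 3 cocktail populations and 82.3 ± 1.05 in IL-2 cells, against 48.9 ± 0.428 in naive cells. The cocktail CD44+CD62L- cells were thus lower than naive cells and lower than IL-2 cells, by -2.72 ± 0.0359 log2 units for the direct difference (adjusted p = 4.03e-16). Gzmc, at 90.3 ± 1.04 FPKM, was also below IL-2 cells, at 662 ± 3.95, by -2.86 ± 0.0309 log2 units. Gzma, at 205 ± 4.46 FPKM, was below IL-2 cells, at 8244 ± 42, by -5.32 ± 0.0422. Cdkn2a was at 21.6 ± 1.26 FPKM, against 66.8 ± 1.07 in IL-2 cells, with a direct difference of -1.58 ± 0.0854. Mt1 was at 205 ± 3.44 FPKM, against 455 ± 8.23 in IL-2 cells (direct difference -1.15 ± 0.0795), and 215 ± 3.88 in cocktail CD44+CD62L+ cells (direct difference -0.07 ± 0.0795, not called). In the other direction, Tcf7, at 237 ± 2.24 FPKM against 2.16 ± 0.257 in IL-2 cells, was higher by 6.24 ± 0.0394. Id3, at 8.07 ± 0.265 FPKM against 2.25 ± 0.473 in IL-2 cells, was higher by 1.49 ± 0.0839, and Xcl1, at 101 ± 5.57 against 15.4 ± 0.992, by 2.64 ± 0.136. Klf2 and S1pr1, low in all cultured cells, were at 52.7 ± 0.752 and 35.3 ± 0.562 FPKM in cocktail CD44loCD62L+ cells. In the cocktail CD44+CD62L- cells they were below the IL-2 cells by -0.68 ± 0.0182 and -0.73 ± 0.0168 log2 units, under the minimum fold.

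**Figure D4:**
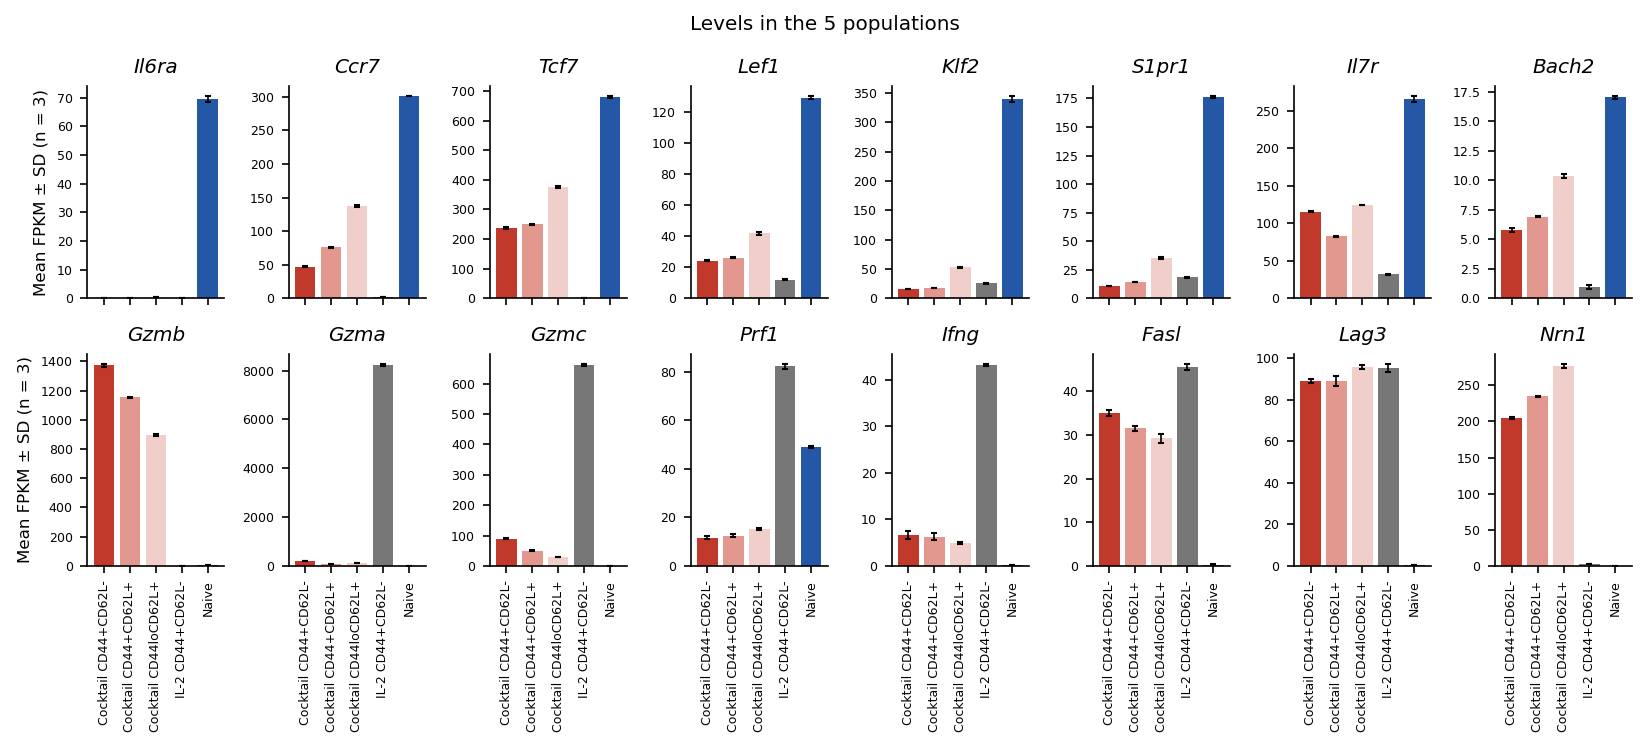
Mean FPKM of 16 genes in the 5 populations, with error bars for the SD of 3 libraries; bars run from cocktail CD44+CD62L- on the left to naive on the right, each panel with its own axis from 0. Genes of naive cells in the top row are highest in naive cells; in the bottom row Gzmb is highest in cocktail CD44+CD62L- cells and listed at 0 in IL-2 cells, while Gzma, Gzmc, Prf1 and Ifng are highest in IL-2 cells.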

How the data were processed

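RNA was extracted with the PicoPure kit from sorted cells and made into Illumina libraries, per the labels' protocols. The submitters' processing notes name TopHat2 2.0.9, Cuffdiff 2.1.1 and the mouse build mm10. The authors deposited normalized FPKM values, 1 column per library for 23284 gene symbols; the gene annotation, the settings and whether strand was used are not stated there, so antisense and overlapping genes cannot be told apart. Libraries were grouped by their labels. Low values were checked for steps of single reads. At the trial scale factor with the highest share, 59.5% to 62.1% of ratios came within 0.05 of whole numbers. The share by chance is 10% for a fixed factor and higher for the best of many. Counts were therefore not recovered and no count test was run.

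Values were taken to log2(FPKM + 1) without scaling, and the 11242 genes whose mean reached 1 FPKM in at least 1 population were tested. A model with population as the only term was fitted to all 15 libraries with limma 3.58.1 in R 4.3.3 (lmFit, eBayes with trend), and p-values were Benjamini-Hochberg adjusted within each comparison. With 3 libraries on each side, the smallest two-sided p of an exact permutation test is 0.1, so none is given. The steps were tested on simulated data. The text names, by rule, 15 changed genes at either end of the fold changes whose higher population averaged 10 FPKM or more, without overlap and with a library above 0 in the lower one. Up to 10 genes listed at 0 in 1 population and, from each list, up to 5 members at either end with at least 5 FPKM were added. Predicted genes, small RNA genes and receptor segments were left out, and gate, identity and selected pathway genes were added whatever their values; a few of the genes so named are not reported here. The members of the lists, the rule and the alternatives were chosen with earlier results of these data known. By synonym, 8 list members were matched. Alternatives were pseudocounts of 0.1 and 5, other filters, quantile normalization, median-ratio scaling, a fit to the compared libraries, the replicate block, no trend, other fold minimums, leaving out single libraries, genes listed at 0 or small RNA genes. Gene positions are whole spans of GENCODE on GRCm38, the assembly of mm10. Promoters are from RefSeq on GRCm38.p6, a patch release that keeps the coordinates. Plots were made with matplotlib 3.10.9 (Python 3.11.15).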

Additional observations from a re-analysis of the deposited data

Results flagged for a closer look

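For 3 of the named genes the 2 CD44+CD62L- populations were called in opposite directions against naive cells, and the direct difference between these populations was called too. Genes such as Prf1 and Eomes, with opposite signs but 1 or both differences from naive cells under the minimum fold, are not counted. Gzmb was higher than naive cells in the cocktail cells and listed below them in IL-2 cells, where all 3 libraries are at 0; the difference between cocktail and IL-2 cells was 10.43 log2 units, and the 0 may be a failed estimate. Iigp1 was at 90.1 ± 0.923 FPKM in cocktail cells and 2.07 ± 0.252 in IL-2 cells, against 9.83 ± 0.298 in naive cells, a difference of 4.89 between the cultures. Lyz2 was at 21.3 ± 0.71 FPKM in cocktail cells and 0.427 ± 0.0584 in IL-2 cells, against 8.22 ± 0.661 in naive cells, a difference of 3.97. Both comparisons use the same naive libraries.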

How the results depend on the processing

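The comparison of cocktail with naive cells gave 1393 changed genes with a pseudocount of 5 (913 higher, 480 lower), 10192 with no fold minimum (5075 higher, 5117 lower) and 821 with a fold minimum of 4 (610 higher, 211 lower). Leaving out 1 library at a time gave 2528 to 2553 (1567 to 1582 higher, 961 to 974 lower). Quantile normalization moved the median of all genes to -0.11 and gave 2558 changed genes, of which 52.0% were higher, against 61.8%. The direct comparison with cocktail CD44+CD62L+ cells gave 41 changed genes with a pseudocount of 0.1 (32 higher, 9 lower), 7 with a pseudocount of 5 (4 higher), 5432 with no fold minimum (2728 higher, 2704 lower), 6 with a fold minimum of 4 (3 higher), 2 lower without genes listed at 0 and 7 without small RNA genes (5 higher, 2 lower); single libraries left out gave 13 to 16 (8 to 12 higher, 3 to 5 lower). That with IL-2 cells gave 1393 with a pseudocount of 0.1 (854 higher), 379 with a pseudocount of 5 (226 higher, 153 lower), 9479 with no fold minimum (4568 higher, 4911 lower) and 180 with a fold minimum of 4 (108 higher, 72 lower), and 881 to 890 (513 to 529 higher, 357 to 371 lower) without single libraries. The cause was not tested beyond what a larger or smaller minimum or pseudocount does by construction. With the replicate number as a block, 2532 genes changed against naive cells (1565 higher, 967 lower), 13 against cocktail CD44+CD62L+ and 881 against IL-2 cells; same-numbered libraries deviated together by correlations of only 0.005, 0.038 and -0.055, so the numbers do not pair the samples. Over all alternatives, values of named genes kept direction and side of the threshold in 6792 cases, gained a call in 144, lost one in 112 and turned sign in 0. Of the 233 changed named genes, 30 lost their call under an alternative other than the fold minimum. With a pseudocount of 5 these included Btla, Bcl6, Jun, Cd40lg, Oas2, Ctsl, Pdk2, Slc39a10, Dnajb9 and Dnmt1. Over all lists and alternatives, other pseudocounts and fold minimums included, counts of members called moved in 162 cases and stayed alike in 1470. List medians moved by more than the typical spread between libraries in 182 cases and stayed within it in 634. Among them, a filter of 5 FPKM and quantile normalization turned the median of the integrin list negative. Depth is not known, so counting error could not be given for single values, and technical replicates leave the spread between mice unmeasured.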

Other observations

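Of 34 ribosome biogenesis and Myc genes, 2 rose and 0 fell, with a median log2 fold change of -0.19. Odc1, the enzyme that starts polyamine synthesis, had 131, 132 and 133 FPKM in the cocktail libraries, against 27.7, 27.9 and 26.8 in the naive libraries. The nucleolar protein gene Ncl had 152 ± 1.03 FPKM in cocktail cells, against 73.5 ± 0.505 in naive cells; its 1.04 ± 0.00777 became 0.93 after quantile normalization. Bop1, needed for large ribosomal subunits, had 32.8 ± 0.327 FPKM in cocktail cells, against 47.8 ± 1.24 in naive cells and was not called. Of 75 ribosomal protein genes 1 rose and 0 fell, and 63 had a negative fold change (median -0.32). Rps29 had 3076 ± 53.9 FPKM in cocktail cells, against 5548 ± 41.5 in naive cells and Rpl3 2454 ± 2.24 FPKM in cocktail cells, against 2130.3 ± 8.13 in naive cells, neither called. The member that rose, Rpl26, had 58.6 ± 4.57 FPKM in cocktail cells, against 24.5 ± 4.41 in naive cells, and ribosomal protein genes have many processed pseudogenes, so single levels are uncertain. Of 31 proteasome genes 0 rose and 0 fell by limma, although all but 2 had a positive fold change (median 0.39) and Psma1, at 165 ± 2.5 FPKM in cocktail cells, against 82 ± 2.99 in naive cells, lay at 1.00 ± 0.0242, just under the minimum. Of 28 endoplasmic reticulum chaperone genes tested 5 rose and 1 fell, or 17.9% and 3.57%, near the 13.9% and 8.59% of all genes. The disulfide isomerase gene P4hb had 246, 248 and 251 FPKM in the cocktail libraries, against 86.1, 85.6 and 85.5 in the naive libraries, and Xbp1, the factor of the unfolded protein response, 59.5 ± 0.907 FPKM in cocktail cells, against 19.8 ± 1.06 in naive cells. Dnajb9, a target of that response, fell, with 6.74 ± 0.336 FPKM in cocktail cells, against 15.9 ± 0.46 in naive cells.

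DNA methylation and Polycomb genes gave 4 risen and 7 fallen of 25 tested, or 16% and 28%, against 13.9% and 8.59% of all genes. Uhrf1 and Dnmt1, which copy methylation at replication, had 89.7, 88.7 and 89.3 FPKM in the cocktail libraries, against 4.55, 4.62 and 4.83 in the naive libraries for Uhrf1 and 86.3 ± 0.684 FPKM in cocktail cells, against 40.8 ± 0.29 in naive cells for Dnmt1. Ezh2, the methyltransferase of Polycomb complex 2, had 71, 70.4 and 70.9 FPKM in the cocktail libraries, against 9.49, 9.88 and 10.3 in the naive libraries. Kdm6b, a demethylase that removes the Polycomb mark, fell, with 2.81, 3.12 and 2.61 FPKM in the cocktail libraries, against 19.7, 19.8 and 19.6 in the naive libraries, and so did Hdac7, a deacetylase of T cells, with 25.5 ± 0.737 FPKM in cocktail cells, against 122 ± 0.666 in naive cells, and Tet3, which oxidises methylated cytosine, with 8.74 ± 0.102 FPKM in cocktail cells, against 25.7 ± 0.412 in naive cells.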
